A study of Mus musculus with 9 samples.

Results

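Lyrm1, Ushbp1, Nsun5 and Tspan4 are 4 protein-coding genes of a deposited table of 98 genes from healing mouse jaw bone. They were chosen by their normalized counts: in each of them the highest Allograft library lay under the lowest Spon. Healing library. Of all 98 rows, 21.4% (21 genes) were lower in Allograft without overlap, 12 of them other protein-coding genes, and since the rule asked for this nothing is read from the count. The RNA came from pulverized maxillae of male C57BL mice, and the RNA methods do not describe dissecting the socket. The mice were 8 weeks old when they entered the experiment, and the bone was taken 2 weeks after extraction of the first molar. In the Allograft group (5 libraries) the socket was filled with cleaned, lyophilized particles of mouse long bone and given saline, and the labels do not say whether saline was given once or repeatedly. In the Spon. Healing group (4 libraries) the same defect was left to heal without a graft. Sequencing used CEL-Seq2, a protocol that captures messenger RNA at its poly-A tail and sequences near that end. The comparison sets graft with saline against healing without a graft, and effects of graft and saline cannot be told apart. The labels number the libraries of a group without naming the animals, and the study's methods call the sequenced replicates biological. The table holds only genes preselected for a difference between these groups, so the differences below describe the libraries and no test of them was made.

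The 4 genes belong to separate cellular systems. Lyrm1 encodes a small protein with the LYR motif (leucine, tyrosine, arginine), and most proteins of this family bind the mitochondrial acyl carrier protein and help to assemble respiratory complexes or iron-sulfur clusters. Human LYRM1 was first described as a gene expressed at a raised level in fat tissue of obese people. Ushbp1 encodes a coiled-coil protein that binds the PDZ domains of harmonin, a scaffold of the sensory hair bundle encoded by Ush1c, and it is a relative of the protein MCC. Nsun5 encodes an RNA methyltransferase that places 5-methylcytosine on the RNA of the large ribosomal subunit, and its human counterpart lies in the region deleted in Williams-Beuren syndrome. Tspan4 encodes a tetraspanin, a protein that crosses the membrane several times and gathers partners such as integrins into microdomains, and it is known for building migrasomes, the vesicles that moving cells leave behind on their retraction fibres.

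Genes with the same direction need not share the region where transcription starts, and the start regions of 3 members are shown for that reason. They are RefSeq windows of 300 bases on GRCm38.p6, from 250 bases before the transcript start to 50 bases after it, written 5′ to 3′ on the gene's strand. RefSeq gives 3 such windows for Lyrm1, 1 for Ushbp1 and 2 for Tspan4, and only the window nearest to the gene's 5′ end was searched and is shown. The window of Lyrm1 spans chr7:119895611-119895910 (plus strand), that of Ushbp1 chr8:71395752-71396051 (minus strand) and that of Tspan4 chr7:141474986-141475285 (plus strand). Capitals mark every match to 6 motifs searched on both strands: the E-box CACGTG, the cyclic AMP response element (CRE) TGACGTCA, the GC box GGGCGG, the CCAAT box CCAAT, the element AGGTCA bound by nuclear receptors and the ETS factor site CCGGAAGT.
Lyrm1: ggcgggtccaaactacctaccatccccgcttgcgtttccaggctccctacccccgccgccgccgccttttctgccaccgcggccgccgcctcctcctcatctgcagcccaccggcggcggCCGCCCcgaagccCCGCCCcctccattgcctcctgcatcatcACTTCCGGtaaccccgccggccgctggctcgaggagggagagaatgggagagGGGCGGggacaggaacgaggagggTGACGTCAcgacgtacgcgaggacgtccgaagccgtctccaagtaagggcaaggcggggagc
Ushbp1: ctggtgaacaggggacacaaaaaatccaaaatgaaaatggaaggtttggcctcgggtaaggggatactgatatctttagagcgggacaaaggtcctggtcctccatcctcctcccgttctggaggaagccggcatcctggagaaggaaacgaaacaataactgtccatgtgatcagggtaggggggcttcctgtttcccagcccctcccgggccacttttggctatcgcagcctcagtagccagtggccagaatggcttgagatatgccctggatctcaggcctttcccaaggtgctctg
Tspan4: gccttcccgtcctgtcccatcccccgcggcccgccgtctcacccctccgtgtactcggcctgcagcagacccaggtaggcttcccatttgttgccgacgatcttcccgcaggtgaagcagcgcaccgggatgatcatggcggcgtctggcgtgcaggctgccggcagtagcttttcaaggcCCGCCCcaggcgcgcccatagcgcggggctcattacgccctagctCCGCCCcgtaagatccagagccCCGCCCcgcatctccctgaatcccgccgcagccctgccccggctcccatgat

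The Lyrm1 window held 3 GC boxes, 1 CRE that begins 12 bases before the transcript start, and 1 ETS site. The Tspan4 window held 3 GC boxes and no other of the motifs, and the Ushbp1 window held none of the 6. No motif was present in all 3 windows shown, and the other start regions of Lyrm1 and Tspan4 were not searched. Among 32851 RefSeq windows of the same length, 35.7% held a GC box, 1.79% the CRE, 3.89% the ETS site, 7.15% the E-box, 37.4% the CCAAT box and 16.3% AGGTCA, and the matches describe letters only. In base composition the windows also differed, with 70.0% G and C in Lyrm1, 68.7% in Tspan4 and 54.0% in Ushbp1, against a median of 52.7% over all windows (quartiles 45.7% and 61.7%). No window for Nsun5 was used here.

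Lyrm1 (ENSMUSG00000030922; GRCm38 chromosome 7, 119895861 to 119956963, plus strand) differed most between the groups. Its normalized counts, which are the reads of a gene after scaling by a size factor for each library, were 3.06, 10.3, 5.71, 11.4 and 13.6 in Allograft replicates 1 to 5, against 72.5, 50.7, 35.1 and 76.3 in Spon. Healing replicates 1 to 4. Every Allograft library was thus low, and the lowest Spon. Healing library (replicate 3) was still 2.58 times the highest Allograft library (replicate 5). The mean was 8.80 ± 4.31 in Allograft (SD, n = 5) and 58.7 ± 19.3 in Spon. Healing (SD, n = 4), and the Spon. Healing mean was 6.67 times that of Allograft. The log2 ratio of the means was -2.74 with a standard error of 0.40. These values rest on few reads, 2 to 25 raw counts per library in Allograft and 23 to 73 in Spon. Healing. The exact Poisson interval (95%) of Allograft replicate 1, with 2 reads, ran from 0.37 to 11.1 normalized counts. The intervals of all 20 pairs of an Allograft and a Spon. Healing library were separate, by a narrow margin between 22.1 and 22.3 at the closest. Such intervals cover counting error only. Each member was chosen for groups that do not overlap, so nothing is read from the number of separate pairs, here or below.

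Ushbp1 (ENSMUSG00000034911; GRCm38 chromosome 8, 71384272 to 71395802, minus strand) had 38.3, 88.9, 47.3, 114 and 99.4 normalized counts in Allograft replicates 1 to 5, against 167, 178, 225 and 289 in Spon. Healing replicates 1 to 4. The Allograft libraries fell into a low pair (replicates 1 and 3) and 3 higher ones, all under the Spon. Healing libraries. The means were 77.6 ± 33.1 in Allograft (SD, n = 5) and 215 ± 55.8 in Spon. Healing (SD, n = 4), a log2 ratio of -1.47 (standard error 0.33), which puts Allograft at 36.1% of Spon. Healing. Raw counts ran from 25 to 251 in Allograft and from 138 to 256 in Spon. Healing, and the Poisson intervals were separate in all 20 pairs of libraries. Ushbp1 mRNA is known from endothelial cells of mice, and in bulk bone fewer cells of a type and less RNA per cell cannot be told apart. None of 17 endothelial marker genes, Pecam1, Cdh5 and Kdr among them, is a row of the table, so their part in the lower Ushbp1 count was not tested.

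Nsun5 (ENSMUSG00000000916; GRCm38 chromosome 5, 135369953 to 135376805, plus strand) was close to constant among the Spon. Healing libraries. It had 18.4, 13.7, 14.7, 21.3 and 15.3 normalized counts in Allograft replicates 1 to 5, against 35.0, 34.7, 36.7 and 34.7 in Spon. Healing replicates 1 to 4. No Allograft library came near the narrow Spon. Healing range, and the lowest Spon. Healing value was 1.62 times the highest Allograft value. The means were 16.7 ± 3.14 in Allograft (SD, n = 5) and 35.3 ± 0.95 in Spon. Healing (SD, n = 4), a log2 ratio of -1.08 (standard error 0.12), with Allograft at 47.3% of Spon. Healing. Both SDs are smaller than counting alone would give on average, so this standard error understates the error of the ratio. Raw counts were low, 12 to 47 in Allograft and 20 to 50 in Spon. Healing. Their Poisson intervals were separate in 5 of the 20 pairs of libraries, and overlapping intervals do not show that the counts of a pair are alike.

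Tspan4 (ENSMUSG00000025511; GRCm38 chromosome 7, 141475240 to 141493427, plus strand) was the most deeply counted member, with 711 to 1985 raw counts in Allograft and 790 to 2164 in Spon. Healing. Its normalized counts were 1215, 810, 800.0, 901 and 994 in Allograft replicates 1 to 5, against 1398, 1503, 1288 and 1369 in Spon. Healing replicates 1 to 4. Allograft replicate 1 stood above the other Allograft libraries and close to Spon. Healing replicate 3, which was 1.06 times as high. The means were 944 ± 171 in Allograft (SD, n = 5) and 1390 ± 88.7 in Spon. Healing (SD, n = 4), a log2 ratio of -0.56 (standard error 0.13) and the smallest difference of the 4, with Allograft at 67.9% of Spon. Healing. Without Allograft replicate 1 the log2 ratio was -0.66. The Poisson intervals were separate in 18 of the 20 pairs of libraries.

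**Figure D1:**
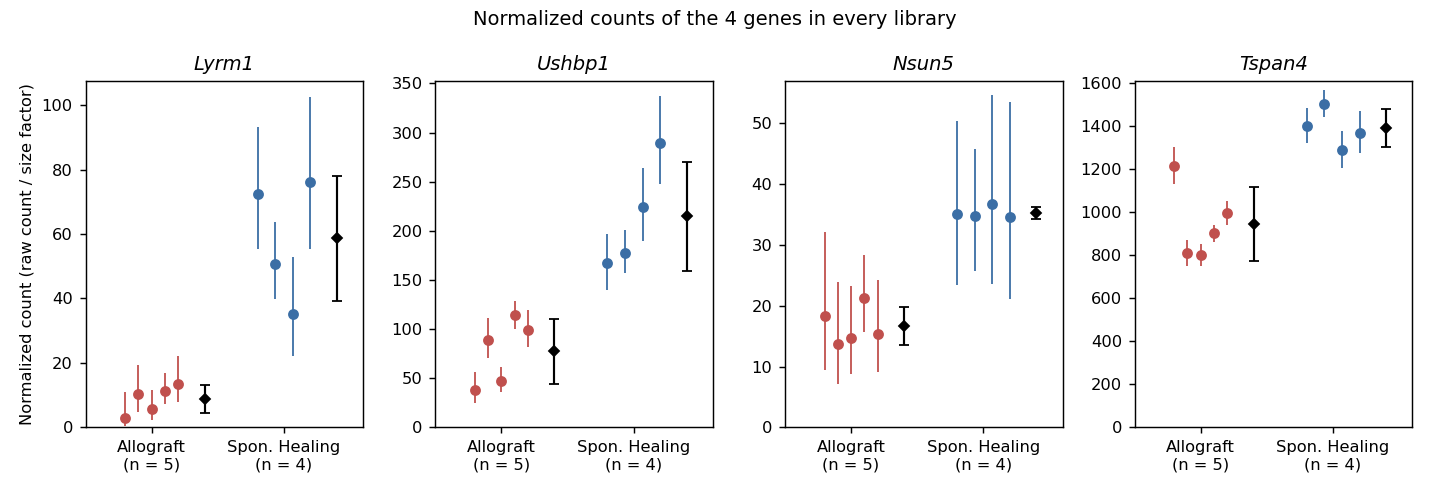
Normalized counts (vertical axes, raw count divided by size factor, starting at 0) of the 4 genes in 5 Allograft and 4 Spon. Healing libraries; coloured points are libraries in order of replicate number with their exact Poisson intervals (95%), and black diamonds are group means with SD. In each gene all Allograft points lie under all Spon. Healing points, most closely in Tspan4 (1215 against 1288), and the 4 Nsun5 points of Spon. Healing are closer together than their own counting intervals.

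Of 26 protein-coding rows with a lower mean in Allograft, 16 met the criterion, and the median log2 ratio of these 26 was -0.86. It was -1.27 over the 4 members and 0.46 over the 97 rows with a ratio. Ranked by the ratio of the lowest Spon. Healing to the highest Allograft value, Lyrm1 was first (2.58), Nsun5 (1.62) and Ushbp1 (1.46) came next of the 26, and Tspan4 was at place 14 (1.06). Next to the threshold, Adamtsl5 was the last gene inside, with 116 as its highest Allograft value and 122 as its lowest Spon. Healing value. Vmn2r97 was the first outside, with 136.0 and 135 in the same order. Tspan4 thus lay near the threshold, and the other 3 members headed the order of these 26. The rule used the same values, so the order describes the choice only. Among rows that are not protein-coding, Gm45110 (2.68) stood above Lyrm1 and Gm37274 (1.57) above Ushbp1.

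**Figure D2:**
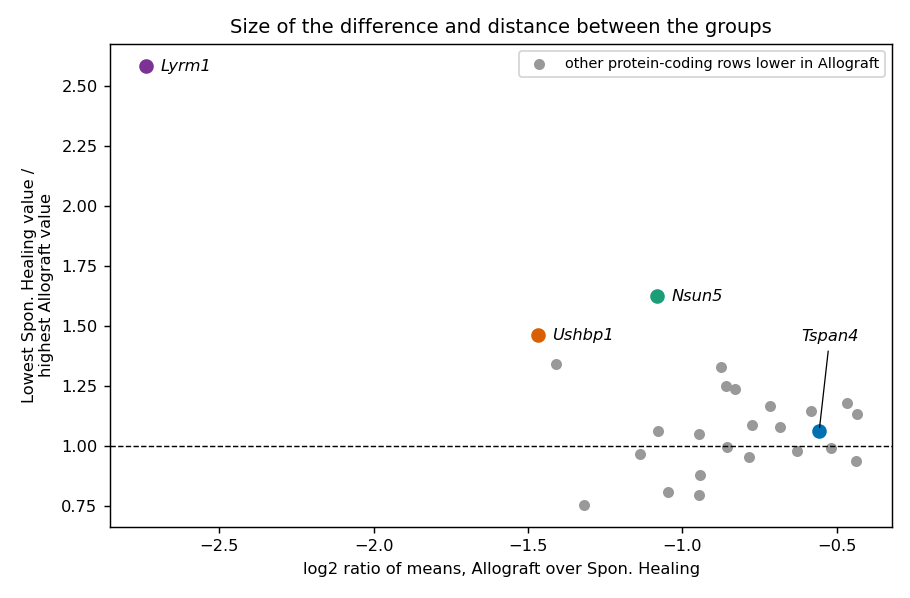
Protein-coding rows of the table with a lower mean in Allograft (26 points, members in colour): the horizontal axis is the log2 ratio of means, Allograft over Spon. Healing, and the vertical axis the lowest Spon. Healing value divided by the highest Allograft value. Points above the dashed line at 1 have groups that do not overlap; Lyrm1 stands at 2.58 and Tspan4 at 1.06, beside genes that are not members.

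The members did not share one order of the libraries. Relative to the Spon. Healing mean of each gene, Allograft replicate 1 reached 5.22% for Lyrm1 and 17.8% for Ushbp1, the lowest Allograft value in both. The same library reached 52.1% for Nsun5, the second highest Allograft value, and 87.4% for Tspan4, the highest. Allograft replicate 3 was lowest or second lowest in all 4 genes (9.73%, 22.0%, 41.6% and 57.6% in the order Lyrm1, Ushbp1, Nsun5, Tspan4), and replicate 4 was the highest Allograft library for Ushbp1 (53.1%) and Nsun5 (60.5%). Among the Spon. Healing libraries, replicate 4 was highest for Lyrm1 (130%) and Ushbp1 (135%) and lowest for Nsun5 (98.3%). Spon. Healing replicate 3 was lowest for Lyrm1 (59.9%) and Tspan4 (92.7%) and highest for Nsun5 (104%). The smallest size factors were those of Allograft replicate 1 (0.653), Spon. Healing replicate 3 (0.654) and Spon. Healing replicate 4 (0.577). Of these, Spon. Healing replicate 4 was the highest library for Lyrm1 and Ushbp1, while the other two were each the lowest of their group for Lyrm1, and the part of depth in these orders was not tested.

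**Figure D3:**
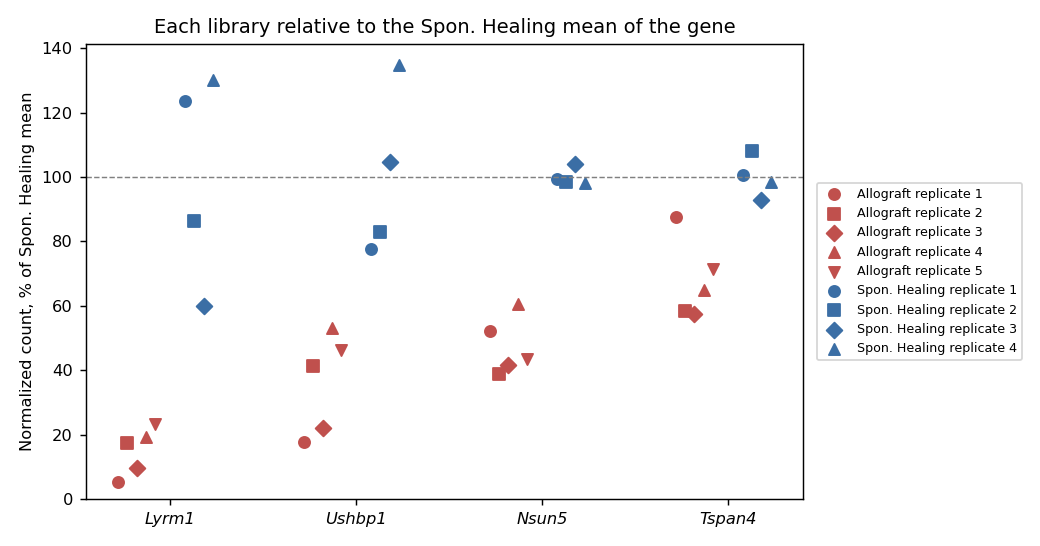
Normalized count of each library as a percentage of the gene's Spon. Healing mean (vertical axis, from 0), by gene; marker shape gives the replicate number and colour the group. Allograft replicate 1 is the lowest Allograft point for Lyrm1 (5.22%) and Ushbp1 (17.8%) and the highest for Tspan4 (87.4%).

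A ratio of raw counts of 2 members within a library is free of the size factor. For every 100 Tspan4 reads there were 0.25 to 1.37 Lyrm1 reads in Allograft libraries and 2.73 to 5.57 in Spon. Healing libraries, with no overlap. For every 100 Ushbp1 reads there were 8 to 13.7 Lyrm1 reads in Allograft and 15.6 to 43.5 in Spon. Healing, again with no overlap. The closest values, 13.7 and 15.6, rest on 16 Lyrm1 reads in Allograft replicate 5 and 23 in Spon. Healing replicate 3. In these libraries Lyrm1 was thus lower in Allograft also relative to Ushbp1, but the counting error of the ratios was not measured. The members were chosen on these same libraries and Lyrm1 differed most among them, so nothing is read from which ratios overlap. Set against Lyrm1, Nsun5 had 113 to 600.0 reads per 100 in Allograft and 45.5 to 104 in Spon. Healing. The value of 600.0 comes from 12 Nsun5 and 2 Lyrm1 reads in Allograft replicate 1. The other 3 pairs overlapped between the groups. Ushbp1 had 3.15 to 12.6 reads per 100 Tspan4 reads in Allograft and 11.8 to 21.1 in Spon. Healing. Nsun5 had 1.51 to 2.37 per 100 Tspan4 reads in Allograft and 2.31 to 2.85 in Spon. Healing. Per 100 Ushbp1 reads, Nsun5 had 15.4 to 48.0 in Allograft and 12.0 to 21.01 in Spon. Healing.

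The spread between libraries differed strongly between the members. It was measured as the variance of the normalized counts within a group divided by the variance that counting alone would give, so that a value of 1 means no spread beyond counting. For Nsun5 this value was 0.59 in Allograft and 0.020 in Spon. Healing, in each group the lowest of all rows with a value (98 and 97 rows). The 4 Spon. Healing values of Nsun5, with a coefficient of variation of 2.69%, were therefore closer together than reads drawn at random would place them on average, and the SD of 0.95 understates the counting error of their mean. For Lyrm1 the value was 2.01 in Allograft and 5.05 in Spon. Healing, for Ushbp1 13.3 and 11.9, and for Tspan4 33.1 and 4.31. Over all rows the medians were 11.9 in Allograft and 6.76 in Spon. Healing. The genes were chosen on these same libraries, so the values are descriptions only.

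**Figure D4:**
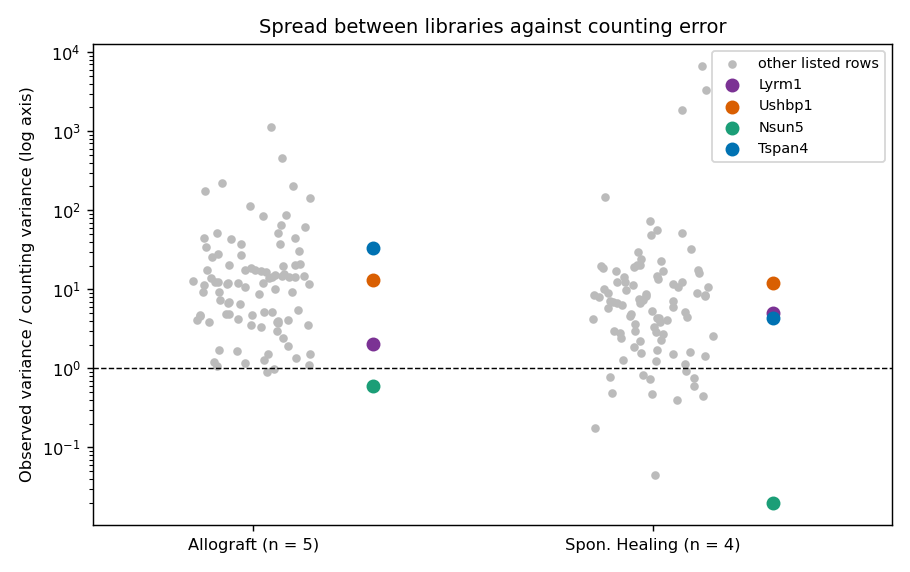
Variance of normalized counts within a group divided by the variance expected from counting (vertical log axis), for the 4 members (coloured) and the other rows with a value above 0 (grey), in Allograft (left) and Spon. Healing (right). The dashed line at 1 marks spread equal to counting error; Nsun5 is the lowest point in both groups (0.59 and 0.020) and Tspan4 in Allograft is at 33.1.

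The size of the difference between the groups depended on scaling. Its sign stayed negative, but the genes were chosen for it and scalings over the listed genes lowered the ratios further. Nothing is therefore read from the sign. Size factors ran from 0.653 to 2.20 in Allograft and from 0.577 to 1.44 in Spon. Healing. In raw counts, without scaling, the groups overlapped in all 4 genes, and the log2 ratios were -2.08 for Lyrm1, -0.74 for Ushbp1, -0.52 for Nsun5 and -0.13 for Tspan4. With TMM factors (edgeR's trimmed mean of M values) over the 98 rows they were -3.05, -1.78, -1.39 and -0.87 in the same order, and none of the 4 overlapped. That scaling lowered the median log2 ratio of all rows by 0.32 (from 0.46 to 0.14), and the shift without scaling was 0.42 upwards. Factors from genes chosen for a difference cannot be taken as neutral, and the full library totals were not used here.

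**Figure D5:**
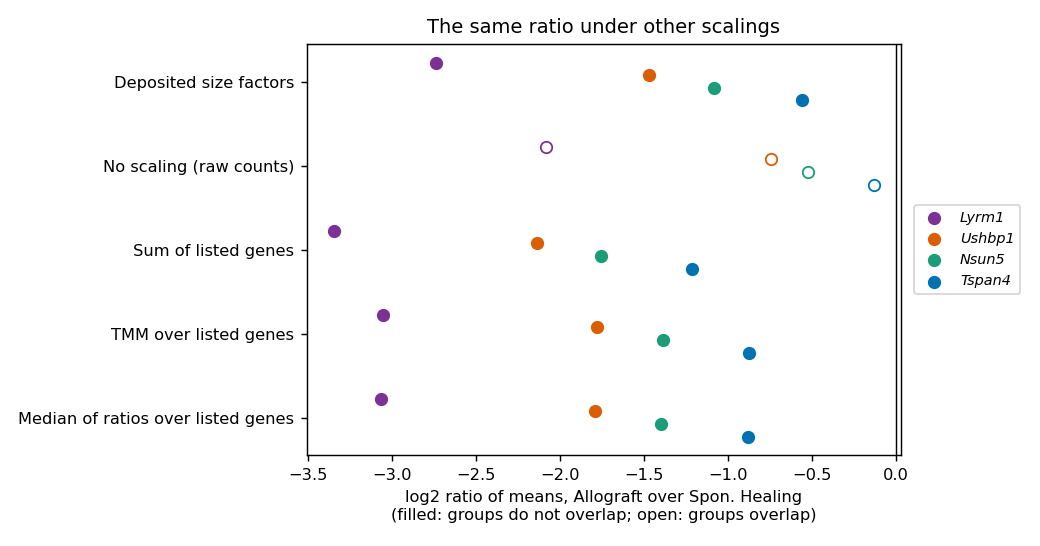
Log2 ratio of group means, Allograft over Spon. Healing (horizontal axis), of the 4 genes under 5 scalings (rows); filled points have groups that do not overlap and open points have groups that overlap. All points are under 0, from -3.34 for Lyrm1 scaled by the sum of the listed genes to -0.13 for Tspan4 in raw counts, where all 4 points are open.

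Over the 9 libraries, the rows most like each member were found by the root-mean-square difference of log2(normalized count + 1) after each gene's own mean was taken away. Lyrm1 was nearest to Gm45110 (0.61), Gm37274 (0.77) and Gm44005 (0.82), all of the class TEC, loci whose transcripts still await experimental proof. Gm45110 had at most 1.14 normalized counts in Allograft and 3.06 to 15.6 in Spon. Healing, so its likeness to Lyrm1 rests on very few reads. Ushbp1 was nearest to Ermard (0.31), a membrane protein of the endoplasmic reticulum, and to the TEC loci Gm45718 (0.36) and Gm37274 (0.42). Nsun5 was nearest to Recql (0.21), which encodes a DNA helicase, Parp12 (0.29), which encodes an ADP-ribosyltransferase, and Cep57 (0.30), which encodes a centrosomal protein. Tspan4 was nearest to Parp12 (0.16), the linker histone gene H1f0 (0.18) and Recql (0.28). Among the members themselves Nsun5 and Tspan4 were nearest (0.30) and Lyrm1 and Tspan4 farthest (1.24). All the nearest rows named here were also lower in Allograft without overlap. The measure includes the group difference by which the members were chosen, so nothing is read from the likeness.

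The families and partners of the members were otherwise absent from the table. Of 11 LYR motif genes only Lyrm1 was a row, of 8 RNA 5-methylcytosine methyltransferase genes only Nsun5, of 31 tetraspanin genes only Tspan4, and of 13 genes of the harmonin and Usher protein network with Mcc only Ushbp1. The same held for 11 migrasome genes (Tspan4 only), 14 genes of rRNA modification (Nsun5 only) and 22 genes of the Williams-Beuren region (Nsun5 only), and none of 14 genes of the acyl carrier protein and iron-sulfur cluster assembly was a row. Since the table holds only preselected genes, this does not show that the others were unchanged. Of 120 markers of 16 cell types the table held 1, the cartilage collagen gene Col11a1, so the cell types of the bone cannot be checked from it.

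In the genome the nearest other row lay several Mb from each member. Such distances were not measured for the other rows, so nothing is read from them. The nearest row was Rabep2 at 6.47 Mb from Lyrm1, Gm45407 at 5.97 Mb from Ushbp1, Kdm2b at 12.4 Mb from Nsun5 and Gm45110 at 14.02 Mb from Tspan4. Within 1 Mb of the members lay 30, 75, 50 and 89 other protein-coding genes of the GENCODE M21 annotation (GRCm38), in the order Lyrm1, Ushbp1, Nsun5, Tspan4, and none was a row. CEL-Seq2 reads come from 3′ ends, and the table lists 9 transcripts for Lyrm1, 5 for Ushbp1, 9 for Nsun5 and 7 for Tspan4, each with its own 3′ end, so the counts per gene do not separate isoforms. The longest coding sequences were 366 nt for Lyrm1 (5 exons), 2040 nt for Ushbp1 (13 exons), 1395 nt for Nsun5 (10 exons) and 714 nt for Tspan4 (8 exons). At its 3′ end Nsun5 overlaps Pom121 by 665 bp and Tspan4 overlaps Chid1 by 292 bp, both on the opposite strand, and Lyrm1 overlaps Dcun1d3 by 438 bp and Dnah3 by 34293 bp, also on the opposite strand. The counting used strand, which keeps such reads apart, and none of these neighbours was a row.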

How the data were processed

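Maxillary RNA of 5 Allograft and 4 Spon. Healing libraries was sequenced by CEL-Seq2. Reads were trimmed by the authors with cutadapt, aligned to GRCm38 with TopHat, filtered on mapping quality and assigned to genes by strand with htseq-count. Tool versions and any use of molecular identifiers are not given in the sources used here. The table gives, for 98 genes, deposited raw counts and the deposited normalized signal, which the authors obtained with DESeq2 (raw over normalized was constant within a relative tolerance of 1e-06 in each of the 9 libraries). The authors' log2 fold change, its standard error and Wald score, the p-value and the adjusted p-value were deposited too and were not used. The authors' mean signal was off by over 1% from a mean of these 9 libraries in 86 rows and needs at least 17 libraries, so others entered their normalization. Listed genes summed to 130890 to 443678 reads in Allograft and 60516 to 230063 in Spon. Healing, which is only part of a library, and full depth is unknown. The methods name fewer replicates than the labels do.

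The members, lists and motifs were chosen with earlier results of these data known, and Lyrm1, Ushbp1, Nsun5 and Tspan4 were selected on this contrast, so no test was run. Python 3.11.15 with pandas 2.3.3, numpy 2.4.6 and scipy 1.17.1 gave means, SD, the log2 ratio of group means (Allograft over Spon. Healing), its standard error by the delta method, and exact Poisson intervals (95%). Intervals and the variance ratio were tested on simulated data. TMM factors came from edgeR 4.0.16 in R 4.3.3. Besides the members the text names, by rule, the 3 rows most like each member, the rows next to the threshold and rows in a gene list. Alternatives were 4 other scalings, group medians, log2 means with a pseudocount of 1, each library left out, a mean raw count of at least 3, protein-coding rows only and, for likeness, a pseudocount of 10.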

Additional observations from a re-analysis of the deposited data

How the results depend on the processing

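No paired analysis was possible because the values are descriptions and come from no test; the replicate numbers in the titles enter nothing. All 60 alternative log2 ratios of the 4 genes were negative. With a library left out, with group medians and with log2 means the choice of genes fixes that sign, so it is no sign of stability. The scalings over the listed genes lowered the ratios further, so they could not turn it. Among the scalings, only raw counts raised the ratios. Of the 60, 50 moved by less than the SD between libraries, including all 36 with 1 library left out. Those ran from -2.95 to -2.52 for Lyrm1, from -1.65 to -1.29 for Ushbp1, from -1.19 to -1.02 for Nsun5 and from -0.66 to -0.50 for Tspan4. Leaving out 1 library moves a group mean by only part of the SD between libraries. That these 36 stayed within the SD is therefore no sign of stability either. Scaling moved the other 10. In raw counts Ushbp1 had -0.74, Nsun5 -0.52 and Tspan4 -0.13. Scaled by the sum of the listed genes they had -2.14, -1.76 and -1.21. With TMM factors Nsun5 had -1.39 and Tspan4 -0.87, and with median-of-ratios factors over the listed genes -1.40 and -0.88. The number of members without overlap was 4 under each of these scalings except in raw counts, where it was 0. Scalings for the share of rows lower without overlap were chosen after seeing the data: that share was 1.02% in raw counts, 32.7% with the sum of the listed genes and 29.6% with TMM or median-of-ratios factors, against 21.4%. It was 20.6% among rows with a mean raw count of at least 3 and 18.2% among protein-coding rows. Of the 12 nearest rows, 10 remained with a pseudocount of 10. Depth limits Lyrm1 (2 reads in 1 Allograft library) and Nsun5 (12 to 50 reads per library) most.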

Other observations

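The authors' mean signal, taken over at least 17 libraries, was 26.3 for Lyrm1, 156 for Ushbp1, 23.7 for Nsun5 and 1196 for Tspan4. The mean over the 9 libraries analysed here was 31.0, 139, 24.9 and 1142 in the same order. The groups of the other libraries are not known here.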
